A study of Rattus norvegicus with 6 samples.

Results

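Cycling phagocytes of the injured spinal cord were chosen cell by cell from single-cell RNA counts. A cell counted as a phagocyte when the transcripts of Tyrobp, Fcer1g and C1qa together reached 20 per 10000 of its unique molecular identifiers (UMIs, the barcodes that mark single captured RNA molecules) and those of S100a8 and S100a9 together stayed below 50 per 10000. It counted as cycling when it held 3 or more UMIs of Mki67, Top2a, Birc5, Ube2c and Cdk1 together. This gave 910 cycling phagocytes among 17066 phagocytes and 26847 cells: 4 in the intact cord, 89 at day 1 after injury, 700 at day 3 and 117 at day 7. They were set beside the 14017 phagocytes of the same libraries with 0 UMIs of the 5 cycle genes, here called noncycling (868, 3765, 4682 and 4702 cells in the order above), and the 2139 phagocytes with 1 or 2 UMIs were kept apart from both. Because measured counts chose the cells, the genes of the rule and every gene that moves with the cell cycle are given as a description only.

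The animals were rats labelled SD, aged 6-8 weeks, with a crush injury of the cord at T10, and all libraries came from whole dissociated tissue with no sorting for a cell type. According to the extraction notes, a 5-mm section was taken from 5 animals per condition, digested with collagenase and trypsin, passed through a 40-µm strainer and freed of erythrocytes before droplet capture. Each condition (intact, and 1, 3 and 7 days after the crush) is 1 library that pools its animals, so there is no replicate, no test between conditions and no p-value. The intact library carries the crush treatment label although its title says intact, and the title was followed. The labels name rat, while the gene names in the tables are in mouse form, 7659 of 28615 of them in forms such as Gm or Rik names, and the names are used as printed.

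A cell that divides passes from growth in G1 through DNA synthesis in S phase to G2 and mitosis. Genes for the replication machinery are switched on as S phase starts, largely through E2F factors at their promoters. Genes for the mitotic spindle, the chromosome passengers and the cyclin B kinase come on later, through promoter elements known as CCAAT boxes and the CHR. In the spinal cord the phagocytes are resident microglia, which can divide in place after injury, and macrophages that enter as blood monocytes and mature in the lesion. Of the genes that chose the cells, Mki67 marks chromosomes in dividing cells, Top2a untangles replicated DNA, Birc5 (survivin) belongs to the chromosomal passenger complex, Ube2c serves the ubiquitin ligase that ends mitosis, and Cdk1 is the mitotic kinase.

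The promoter stretches of Mcm5, an S phase gene whose product is part of the replicative helicase, of Cdk1, of Cdc20, an activator of the ubiquitin ligase that ends mitosis, and of Top2a show these elements side by side. They are the 250 bases before the annotated start, 5′ to 3′ on the strand of the gene, from RefSeq on the rat build GRCr8. Capitals mark CCAAT, the CHR core TTTGAA and the E2F motif TTCCCGC, each searched on both strands, and no marked motifs overlap in these 4 stretches.
Mcm5 (chr19:13488563-13488812, plus strand): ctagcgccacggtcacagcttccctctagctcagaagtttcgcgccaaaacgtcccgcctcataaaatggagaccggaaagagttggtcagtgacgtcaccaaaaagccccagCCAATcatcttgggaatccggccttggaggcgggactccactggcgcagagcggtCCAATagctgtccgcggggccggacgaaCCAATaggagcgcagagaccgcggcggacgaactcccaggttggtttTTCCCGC
Cdk1 (chr20:19265043-19265292, plus strand): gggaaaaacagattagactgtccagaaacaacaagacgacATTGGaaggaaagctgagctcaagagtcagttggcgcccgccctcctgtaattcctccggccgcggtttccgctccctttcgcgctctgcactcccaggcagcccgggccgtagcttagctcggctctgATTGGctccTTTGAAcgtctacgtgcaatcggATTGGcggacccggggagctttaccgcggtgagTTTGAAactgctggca
Cdc20 (chr5:137255800-137256049, minus strand): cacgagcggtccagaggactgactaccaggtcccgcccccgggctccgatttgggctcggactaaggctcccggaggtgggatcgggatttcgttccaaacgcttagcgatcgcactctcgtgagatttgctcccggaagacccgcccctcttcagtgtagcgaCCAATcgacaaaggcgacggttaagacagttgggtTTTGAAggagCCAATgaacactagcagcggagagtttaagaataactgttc
Top2a (chr10:84473094-84473343, minus strand): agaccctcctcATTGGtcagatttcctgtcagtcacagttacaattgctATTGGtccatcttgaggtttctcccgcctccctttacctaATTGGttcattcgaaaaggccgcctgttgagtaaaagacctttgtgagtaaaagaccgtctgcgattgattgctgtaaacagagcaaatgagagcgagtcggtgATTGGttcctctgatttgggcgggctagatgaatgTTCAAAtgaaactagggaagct

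Over the same 250 bases, the CCAAT box was found in 34.3% of all 27457 promoters in the table, the CHR core in 16.0% and the E2F motif in 3.58%. Among the 24 of 30 genes of the S phase list that had an entry, 7 (29.2%) held the E2F motif, 11 (45.8%) the CCAAT box and 2 (8.33%) the CHR core. Among the 33 of 36 genes of the G2/M list with an entry, 25 (75.8%) held the CCAAT box, 17 (51.5%) the CHR core and 0 the E2F motif. The CCAAT box and the CHR core stood together in 16 of these 33 (48.5%), against 5.76% of all promoters. A match says only that these letters are in the window.

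Cycling phagocytes made up 0.449% of phagocytes in the intact cord (4 of 891, exact 95% interval 0.122% to 1.15%), 2.09% at day 1 (89 of 4261, 1.68% to 2.56%), 10.5% at day 3 (700 of 6697, 9.73% to 11.2%) and 2.24% at day 7 (117 of 5217, 1.85% to 2.68%). Day 3 stood far above the other libraries, and the intervals of days 1 and 7 overlapped. All intervals given here cover counting error only, since molecules and cells of 1 library are not replicate animals. Depth differed between the libraries, with a median of 3282 UMIs per phagocyte in the intact cord, 5359 at day 1 and 7428 at day 3. When each cell was thinned to 2000 UMIs and 2 or more UMIs of the 5 genes were required, the shares were 0.384%, 0.847%, 6.44% and 1.58% for intact, day 1, day 3 and day 7. The day 3 library remained the highest at equal depth.

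Other cells of the same libraries show how many cells reach 3 UMIs of the 5 genes outside the phagocytes. Ependymal cells, chosen by their own marker genes, held 0 such cells in every library, 0 of 452 in the intact cord (3 counts of the total, the limit that a count of 0 allows, come to 0.664%) and 0 of 218 at day 3. Endothelial cells held 0 of 886, 1 of 1008, 47 of 880 and 0 of 475. Mature neutrophils held 71 of 357 (19.9%) at day 1 and 32 of 241 (13.3%) at day 7, so that gate is no low background.

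The cells just inside the threshold were few at day 3 and more common at day 1. At day 1, 26 of the 89 cycling phagocytes had exactly 3 UMIs of the 5 genes and 73 phagocytes had 2; at day 3, 97 of 700 had 3 and 257 had 2; at day 7, 18 of 117 had 3 and 28 had 2. At least 10 UMIs were found in 30, 392 and 44 cycling phagocytes. The summed level of the S phase list moved with the UMIs of the 5 genes even below the threshold. At day 1 it was 629 counts per 1000000 UMIs (CPM) in noncycling phagocytes, 1346 in those with 1 UMI, 1920 with 2 and 2360 with 3, and at day 3 it was 315, 392, 783 and 1228. The phagocytes with 1 or 2 UMIs thus lay between the classes. Of noncycling phagocytes thinned to 2000 UMIs, 25.6% at day 1 held 2 or more UMIs of the S phase list, against 98.9% of cycling ones, beside 22.6% of ependymal cells. At day 3 these shares were 13% (interval 12% to 14%) in noncycling phagocytes and 19.7% (14.5% to 25.9%) in ependymal cells, and at day 7, 9.84% and 13.6%, with intervals that did not overlap at day 3.

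Within the cycling phagocytes, Cdk1 was the gene found in most cells at day 1 (85.4% of 89) and Birc5 at day 3 (90.6% of 700) and day 7 (86.3% of 117). Birc5 stood at 146 CPM at day 1 (interval 127 to 168), 383 at day 3 (371 to 395) and 453 at day 7 (408 to 502). Ube2c stood at 75, 331 and 324 CPM. Mki67 stood at 74.2, 106 and 120 CPM, and Top2a at 154, 184 and 231. Birc5 and Ube2c differed most between day 1 and the later libraries. The rule takes a fixed number of UMIs of these genes, which is a lower rate in deeper cells. The median cycling phagocyte held 15549 UMIs at day 1, 12532 at day 3 and 7032 at day 7. These levels are therefore a description, and the part of the rule in their differences was not tested. In the 4 cells of the intact cord Cdk1 had 0 UMIs (interval up to 173 CPM), and the other 4 genes held 8 to 13 UMIs each.

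Cycling phagocytes were larger libraries than noncycling ones. Their median was 15549 UMIs against 5114 at day 1, 12532 against 6782.5 at day 3, 7032 against 3890 at day 7, and 4392.5 against 3272 in the intact cord. Median genes per cell were 3598 against 1663, 2998 against 1887.5 and 2026 against 1235.5 at days 1, 3 and 7. Mitochondrial transcripts took 2.16% to 2.51% of UMIs in both classes over the injured libraries. A rule on a number of UMIs takes deeper cells more readily, and the share of this depth difference that comes from the rule was not tested.

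Genes were compared between cycling and noncycling phagocytes of 1 library from the summed CPM, with genes of at least 20 UMIs expected in the smaller sum at the mean of both levels, and a gene is called higher or lower at 1.5-fold. At day 1, 18.9% of 5817 genes were at least 1.5-fold higher in cycling phagocytes and 10.6% at least 1.5-fold lower. At day 3 these were 16.0% and 6.45% of 10133 genes, and at day 7, 23.4% and 8.40% of 3728 genes. The counts called in each list below are to be read beside these shares. Composition scaling by trimmed means (TMM) lowered every cycling-over-noncycling log2 ratio by 0.24, 0.15 and 0.22 at days 1, 3 and 7, so that 591 genes were higher and 1099 lower at day 1 instead of 1102 and 615, 1196 and 1059 at day 3 instead of 1626 and 654, and 536 and 626 at day 7 instead of 873 and 313. As a check on depth, noncycling phagocytes were also drawn by the deciles of the UMIs of the cycling ones (267, 220 and 545 cells). Values against them are given as at equal depth. Depth differed between the microglia and macrophage sides defined below, so the draw can also change the mix of sides, which was not counted. The part of depth and of this mix in a change at equal depth was not tested. The contrast is that of the rule itself, and a gene absent from noncycling cells passes the filter only through the cycling ones. Counts over the cell cycle lists below are therefore a description.

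The genes of DNA replication were higher in cycling phagocytes of every injured library, 30 of 30 tested at day 1, 34 of 34 at day 3 and 14 of 14 at day 7, with median log2 ratios of 2.34, 2.63 and 3.15. The median over all tested genes was 0.17, 0.12 and 0.18. Pclaf, a partner of the replication clamp, stood at 343, 390.2 and 522 CPM in cycling phagocytes of days 1, 3 and 7 and at 2.45, 4.78 and 3.07 in noncycling ones. Mcm5 stood at 150.0 against 26.0 CPM at day 1 (5.76-fold, interval 4.89 to 6.75), 62.8 against 6.53 at day 3 (9.62-fold, 8.27 to 11.2) and 50.1 against 4.33 at day 7 (11.6-fold, 7.79 to 16.9). Its level was highest at day 1 in both classes. Lig1, which joins Okazaki fragments, was 5.89-, 7.28- and 10.2-fold higher.

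Genes that supply nucleotides followed the same direction, with 16 of 17, 16 of 17 and 9 of 9 tested genes called higher. Rrm2, the small subunit of ribonucleotide reductase, stood at 145, 134 and 185 CPM against 2.57, 2.89 and 1.46, Tk1 (thymidine kinase) at 37.9, 123 and 131 CPM against 1.09, 2.95 and 1.80, and Tyms (thymidylate synthase) at 114, 93.1 and 99.0 against 22.4, 5.75 and 6.62. Tk1 was the one of these with the lowest level at day 1 relative to the later days. Histone and chromatin assembly genes were higher in 13 of 14, 20 of 20 and 15 of 15. Hmgb2, a chromatin protein of proliferating cells, stood at 924, 803 and 1608 CPM against 149, 102 and 118, and H2ax, a histone variant, was 3.34-, 9.51- and 11.6-fold higher.

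The later genes of the cycle differed more between the libraries. Of the G2/M list, 36 genes long, 12 genes passed the filter at day 1 and 11 were higher, 35 of 36 were higher at day 3 and 16 of 17 at day 7. Ccnb1, which encodes cyclin B1, stood at 34.1, 112 and 101 CPM in cycling phagocytes of days 1, 3 and 7 and at 1.69, 2.22 and 1.41 in noncycling ones. Cdc20 stood at 29.0, 99.4 and 78.2 CPM against 2.37, 1.53 and 1.27. Day 1 was the low library for both genes. Ccna2, cyclin A2, which acts from S phase to mitosis, stood at 72.0, 126 and 122 CPM against 0.643, 1.03 and 0.438. Nusap1, a spindle protein, stood at 30.4, 100.1 and 142 CPM, and Cenpa, the centromere histone, at 64.6, 279 and 251 CPM against 24.2, 21.8 and 13.1. Stmn1, which destabilises microtubules, was 11.1-, 16.7- and 28.5-fold higher.

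Genes of the list that joins cell cycle inhibitors and DNA damage genes did not share a direction. Of those tested, 5 of 16 were higher and 3 lower at day 1, 11 of 24 and 4 at day 3, and 5 of 13 and 4 at day 7. Cdkn2c, an inhibitor of the G1 kinases, was 5.88-, 9.51- and 8.76-fold higher in cycling phagocytes. Btg1 and Btg2, antiproliferative genes, had lower values in cycling phagocytes, Btg1 by 2.47-, 1.81- and 1.75-fold and Btg2 by 1.32-, 1.60- and 2.18-fold. At equal depth the Btg1 log2 ratios were -0.02, -0.19 and -0.41, and that of Btg2 at day 3 was 0.42.

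Each cycling phagocyte was called S-high or G2/M-high from its transcripts of both lists, without the 5 genes of the rule, each divided by its mean over all cycling phagocytes. At day 1, 77 of 89 were S-high (86.5%, interval 77.6% to 92.8%), at day 3, 297 of 700 (42.4%, 38.7% to 46.2%) and at day 7, 55 of 117 (47.0%, 37.7% to 56.5%). In the intact cord 1 of 4 was S-high. Day 1 lay apart from the later libraries. Thinned to 2000 UMIs per cell the shares were 91.0%, 43.7% and 45.1%. This thins the transcripts of both lists only, since the cells were still those chosen at full depth. The part of depth in that choice was not tested. The call is a division of a range: 12, 215 and 46 cells of days 1, 3 and 7 lay within 2-fold of the dividing line.

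The median cycling phagocyte held 35.9 UMIs of the S phase list per 10000 at day 1, 13.2 at day 3 and 19.1 at day 7. For the G2/M list the medians were 8.70, 23.4 and 28.5. The S phase medians were highest at day 1 and lowest at day 3, and those of G2/M were lowest at day 1. Between noncycling phagocytes the same difference in the S phase list was seen, with a median log2 ratio of day 3 over day 1 of -1.29, against -1.01 in cycling ones. For the G2/M list it was -0.29 in noncycling and 1.17 in cycling phagocytes.

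**Figure D1:**
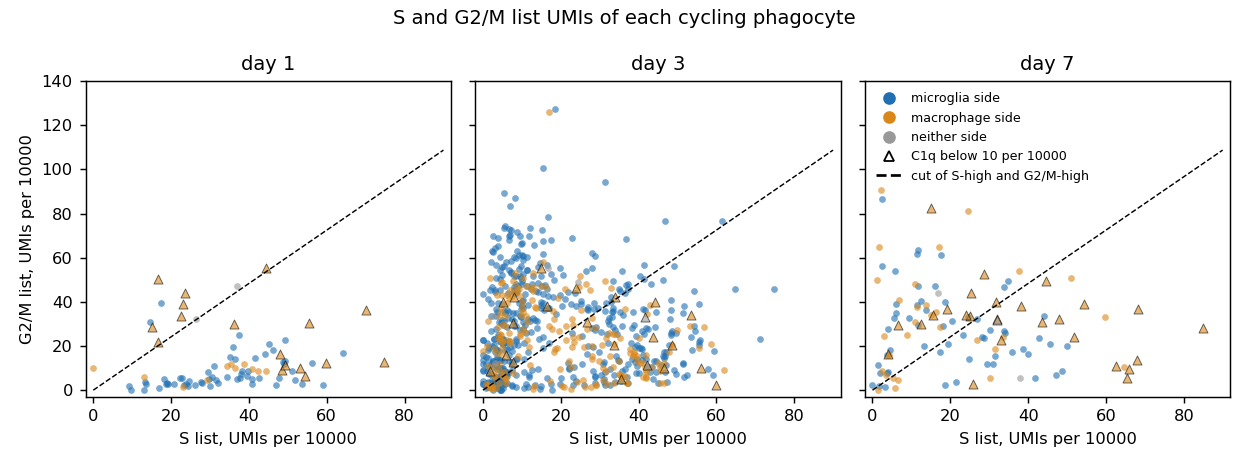
Each cycling phagocyte of days 1, 3 and 7 as a point, by its UMIs of the S phase list (horizontal axis) and of the G2/M list (vertical axis) per 10000 UMIs, coloured by microglia side, macrophage side or neither; triangles are cells with C1q below 10 per 10000 and the dashed line divides S-high from G2/M-high cells. The day 1 cells lie mostly below the line (77 of 89), and the day 3 and day 7 cells spread over both sides of it.

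Phagocytes were put on a microglia side or a macrophage side by which of 2 gene groups gave more UMIs, with at least 2: P2ry12, Tmem119, Siglech, Gpr34, Sall1, Olfml3, Sparc, Crybb1 and P2ry13 for microglia, and Ccr2, Ly6c2, Plac8, Ms4a7, Arg1, Fn1, Thbs1, Emilin2, F10, Vcan and Chil3 for macrophages and monocytes. These sides are ranges of expression and not proven lineages, since a monocyte-derived cell can take on or lose such transcripts. On the microglia side 59 of 1360 phagocytes were cycling at day 1 (4.34%, interval 3.32% to 5.56%), 478 of 2937 at day 3 (16.3%, 15% to 17.7%) and 58 of 3875 at day 7 (1.5%, 1.14% to 1.93%). On the macrophage side it was 28 of 2660 at day 1 (1.05%, 0.701% to 1.52%), 216 of 3642 at day 3 (5.93%, 5.19% to 6.75%) and 56 of 1142 at day 7 (4.90%, 3.73% to 6.32%). The microglia side had the higher share at days 1 and 3, by 4.12 and 2.74 times, and the macrophage side at day 7, by 3.28 times.

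The depth of these phagocytes differed between the sides, with a median of 11043 UMIs on the microglia side and 4820.5 on the macrophage side at day 1, 7167 and 7828 at day 3, and 3840 and 5059 at day 7. Thinned to 2000 UMIs, the shares were 1.28% and 0.502% at day 1, 9.99% and 3.27% at day 3, and 0.882% and 3.70% at day 7. The side with the higher share stayed the same at days 1, 3 and 7. At day 1 these thinned shares rest on 14 of 1096 and 13 of 2590 cells. Their intervals, 0.700% to 2.13% and 0.268% to 0.857%, overlapped. In the intact cord it turned, from 1 of 46 on the macrophage side (2.17%) against 0.363% on the microglia side to 0 of 41 against 0.413% when thinned. Among cycling phagocytes, 66.3%, 68.3% and 49.6% lay on the microglia side at days 1, 3 and 7, against 27.4%, 35.8% and 74.8% of noncycling ones.

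**Figure D2:**
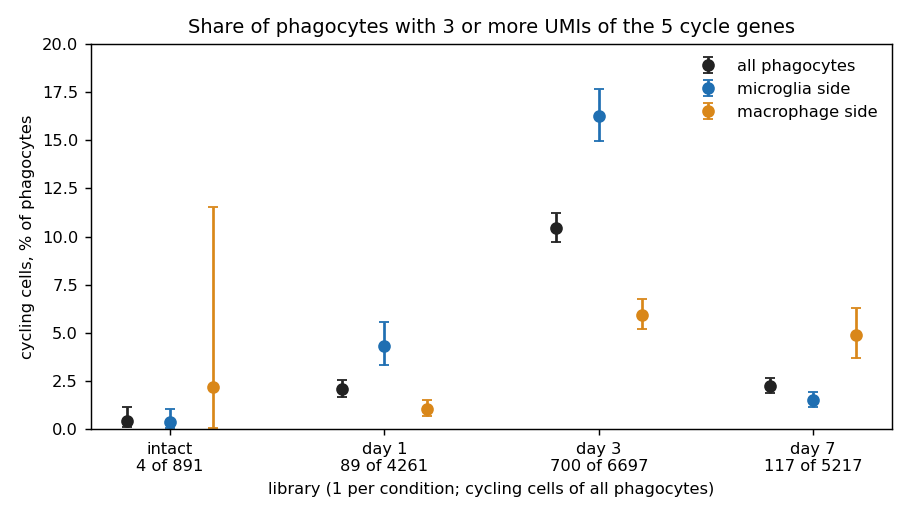
Cycling cells as a percent of phagocytes (vertical axis) in each library (horizontal axis), for all phagocytes and for each side, with exact 95% intervals for counting error. The microglia side is highest at day 3 (16.3%) and lies above the macrophage side at days 1 and 3, while the macrophage side lies above it at day 7 (4.90% against 1.5%).

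At day 1, 57 of 59 cycling phagocytes on the microglia side were S-high (96.6%) and 20 of 28 on the macrophage side (71.4%, interval 51.3% to 86.8%). Of those 28, 17 had almost no C1q and are described next; the other 11 held 10 S-high cells (90.9%, interval 58.7% to 99.8%), a split made after the values had been seen. At day 3 the S-high shares were 38.9% and 50.5%, and at day 7, 46.6% and 46.4%; without cells of low C1q the macrophage side gave 50.5% and 36.7%. Cdc20 at day 1 stood at 11.6 against 3.92 CPM in cycling and noncycling phagocytes of the microglia side (2.96-fold, interval 1.37 to 5.88) and at 61.8 against 1.15 on the macrophage side (53.6-fold, 27.3 to 108), on 11 and 24 UMIs in cycling cells. Of those 24 UMIs, 23 came from the 17 cells of low C1q.

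Part of the cycling phagocytes had almost no complement C1q. C1qa, C1qb and C1qc together, the complement starter made by mature tissue macrophages and microglia, fell below 10 per 10000 UMIs in 17 of 89 cycling phagocytes at day 1 (19.1%), 22 of 700 at day 3 (3.14%) and 27 of 117 at day 7 (23.1%). Noncycling phagocytes were below this value in 51.5%, 20.5% and 3.72%. None of the C1q-low cycling cells of days 1, 3 and 7 lay on the microglia side. The C1q value of 10 and the genes described next were chosen after the values had been seen.

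At day 1 all 17 C1q-low cycling cells held 3 or more UMIs of the granule genes Elane, Prtn3, Mpo, Ctsg and Ms4a3, which mark bone marrow precursors of granulocytes and monocytes. Elane stood at 576 CPM in them and at 0.893 in the other 72 cycling phagocytes, Ctsg at 444 CPM against 0, and Ly6c2, a surface protein of inflammatory monocytes, at 2727 against 2.68. Csf1r, the receptor for macrophage colony-stimulating factor, stood at 101 CPM in them and at 790.4 in the others. The markers of these 17 cells go against the name phagocyte, and they are called here by their low C1q. At day 7, 10 of the 27 held granule genes and 2 held mast cell or basophil genes, Mcpt8 and Prss34 among them. In the 22 C1q-low cells of day 3, of which 1 held granule genes, antigen presentation genes were high. H2-Ab1 stood at 3124 CPM against 136 and Cd74 at 7113 against 394. These genes were also high in the 27 C1q-low cells of day 7, H2-Ab1 at 3159 CPM against 387 and Cd74 at 8436 against 733. A UMI of H2-Ab1 was found in 15 of the 22 cells and in 10 of the 27.

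Without the C1q-low cells, cycling phagocytes made up 3.21% of phagocytes at day 1, 12.1% at day 3 and 1.80% at day 7. Among the C1q-low phagocytes the shares were 0.842%, 2.04% and 12.3%. By side, with C1q of at least 10 per 10000, the shares were 4.36% on the microglia side and 1.61% on the macrophage side at day 1, 16.4% and 7.42% at day 3, and 1.5% and 3.07% at day 7. The median of the G2/M list at day 1 depended on these cells: it was 3.79 over all cycling phagocytes and 1.01 without the C1q-low ones, on the log2 scale.

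**Figure D3:**
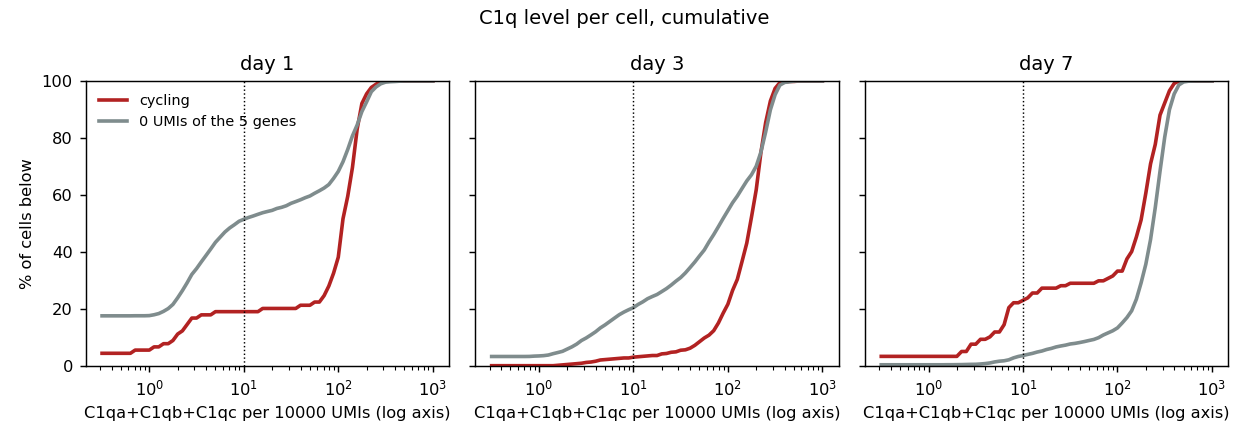
Percent of cycling and noncycling phagocytes (vertical axis) whose C1qa, C1qb and C1qc UMIs per 10000 lie below the value on the horizontal log axis, at days 1, 3 and 7; the dotted line marks 10 per 10000. At day 1 the noncycling class lies lower in C1q than the cycling class, with medians of 8.25 and 112, and at day 7 the order is the other way round, 237 and 169.

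Outside the cell cycle lists, 1925 genes could be read in all 3 injured libraries with at least 50 CPM where higher, of which 736 had higher and 293 lower values in cycling phagocytes of every one. These counts take the sign alone, with no fold cut and without TMM scaling, which lowers every ratio. The median over all tested genes was itself on the higher side in each library. The 10 highest of the 736 genes by their smallest ratio were Pbk, Selenoh, Dnajc9, Tmpo, Ccdc34, Syce2, Nrm, Pmf1, Dtymk and Hat1. Pbk, a kinase of mitotic cells, stood at 50.5, 123 and 150.3 CPM against 0.402, 1.28 and 0.633. Selenoh, a nuclear selenoprotein, was 4.44-, 3.84- and 4.49-fold higher, Dnajc9, a histone chaperone partner, 4.45-, 6.07- and 6.53-fold, and Tmpo, a protein of the nuclear lamina, 3.65-, 7.70- and 9.12-fold. Several of these genes act in division or at the nucleus although the lists do not hold them.

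Genes of nuclear transport and RNA processing were higher as a group, 13 of 25 tested at day 1, 20 of 25 at day 3 and 23 of 23 at day 7, with 0 lower and medians of 0.60, 0.89 and 1.19. Ran, the GTPase that drives nuclear import and spindle assembly, stood at 1334 against 788 CPM at day 1, 913 against 328 at day 3 and 731 against 188 at day 7. Lsm2, of the spliceosome, was 2.57-, 4.20- and 4.61-fold higher. At equal depth the medians of this list were 0.35, 1.01 and 1.31. Ribosome biogenesis genes had medians of 0.52, 0.43 and 0.47, and 0.06 at equal depth at day 1. Of them 10 of 21, 6 of 22 and 6 of 17 were called higher and 0 lower, beside 18.9%, 16.0% and 23.4% of all tested genes higher. Nuclear genes of oxidative phosphorylation had medians of 0.19, 0.18 and 0.55, close to those of all genes at days 1 and 3.

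Genes lower in all 3 libraries outside the cell cycle lists included Apoe, Lst1, Malat1, Grina and Fos. Cebpa and Klf4, transcription factors of myeloid differentiation, were 1.62- and 1.64-fold lower at day 3; at day 1 Cebpa was 1.12-fold lower with an interval that reached 0.945. Their log2 ratios at equal depth at days 1, 3 and 7 were -0.52, -0.57 and -0.51 for Cebpa and 0.21, -0.15 and -0.37 for Klf4, so neither was past 1.5-fold and Klf4 turned at day 1.

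Apoe, which carries lipid, stood at 353 against 1675 CPM at day 1, 13165 against 26115 at day 3 and 47541 against 87125 at day 7. It was lower in cycling phagocytes on the microglia side (1.90-, 1.56- and 1.35-fold) and on the macrophage side (7.37-, 1.84- and 3.03-fold). At equal depth its log2 ratios were -1.13, -1.07 and -1.05. Endothelial cells thinned to 2000 UMIs held an Apoe transcript in 35.6% of cells at day 1, 93.7% at day 3 and 100% at day 7, and the part of free RNA in the Apoe difference was not tested. Malat1, a nuclear long noncoding RNA, stood at 7035 against 14334, 6065 against 10684 and 7860 against 13238 CPM. At equal depth the Malat1 log2 ratios were -0.45, -0.67 and -0.58. Fos, an immediate early gene, was 1.82-, 1.78- and 1.57-fold lower; at equal depth its log2 ratio was 0.04 at day 1, -0.65 at day 3 and -0.28 at day 7. Lst1, a leukocyte transcript, was 2.28-, 2.37- and 1.80-fold lower, with a log2 ratio of 0.34 at equal depth at day 1.

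**Figure D4:**
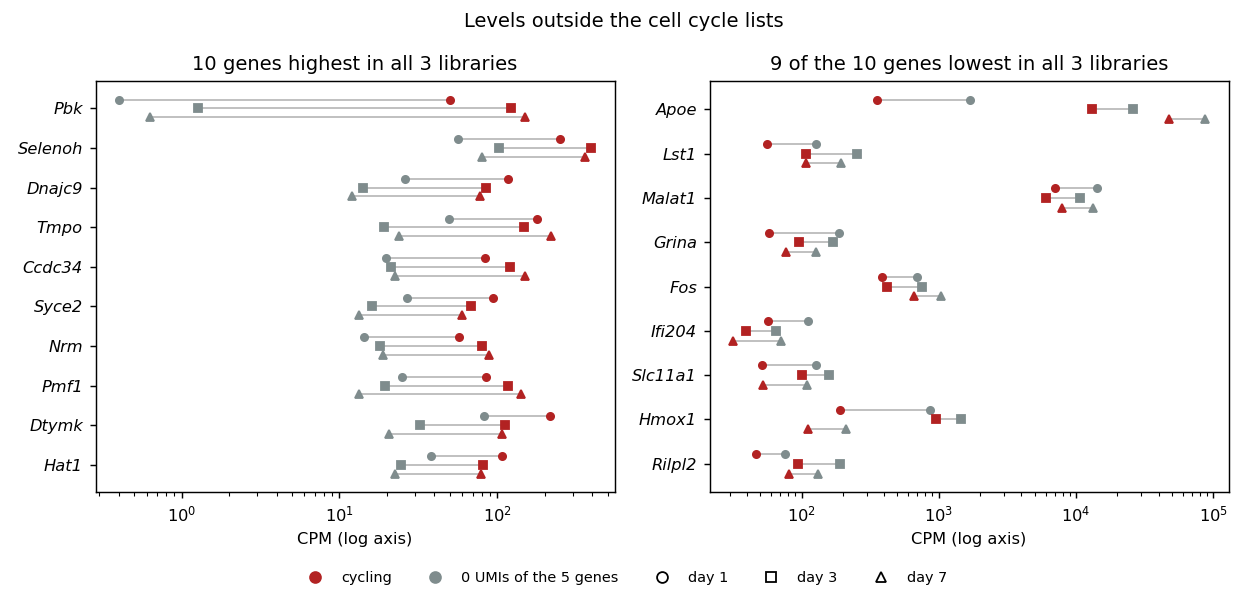
Levels of the 10 genes highest and 9 of the 10 lowest in cycling phagocytes of all 3 injured libraries outside the cell cycle lists, in CPM on a log axis, for cycling (red) and noncycling (grey) phagocytes of days 1, 3 and 7 (circles, squares, triangles). Each line joins the classes of 1 library, and the lines of Selenoh (4.44-, 3.84- and 4.49-fold) are of similar length in all 3.

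Identity genes differed in direction between the libraries when all phagocytes were used, and part of this did not hold at equal depth. Homeostatic microglia genes had a median log2 ratio of 0.83 at day 1 (13 of 19 higher, 0 lower), 0.18 at day 3 (4 of 20 higher, 0 lower) and -0.80 at day 7 (12 of 18 lower, 0 higher). Genes of recruited monocytes and macrophages had -1.65 (2 of 25 higher, 20 lower), -0.93 (0 of 26 higher, 19 lower) and 1.38 (13 of 19 higher, 0 lower). Of all tested genes, 18.9%, 16.0% and 23.4% were higher and 10.6%, 6.45% and 8.40% lower at days 1, 3 and 7. At equal depth the homeostatic medians were 0.20, 1.67 and -0.27 and the recruited medians 0.34, -0.72 and 1.06. The day 1 value of the recruited list thus turned. The homeostatic values of days 1 and 7 came closer to 0, while that of day 3 rose from 0.18 to 1.67. Both lists hold genes that set the sides, and the share of noncycling phagocytes on the microglia side moved the opposite way, from 27.4% at day 1 to 74.8% at day 7. Tmem119, a microglia surface protein, stood at 264 against 122 CPM at day 1, 281 against 196 at day 3 and 205 against 305 at day 7. Thbs1, a matrix glycoprotein of monocytes, stood at 134 against 1354, 158 against 727 and 108 against 87.9 CPM. The highest value among the 6 was that of noncycling cells at day 1.

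**Figure D5:**
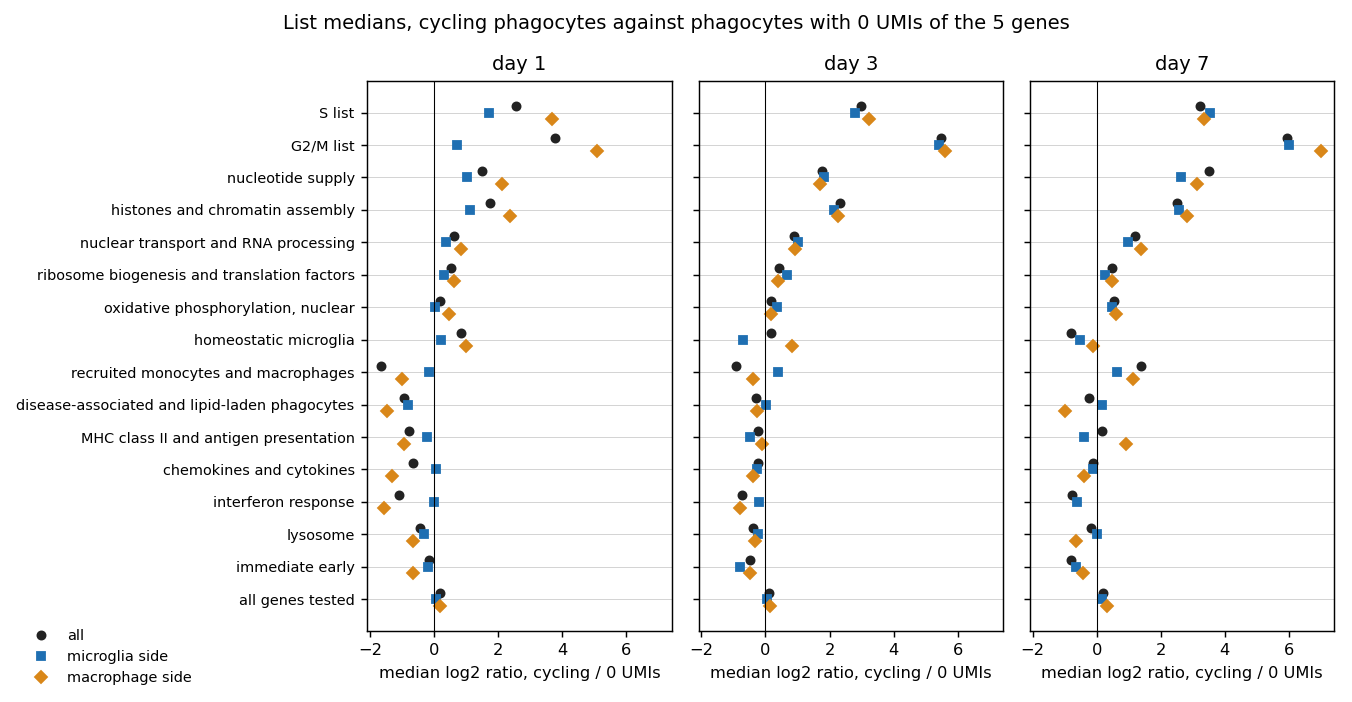
Median log2 ratio of cycling over noncycling phagocytes (horizontal axis) of the gene lists and of all genes tested, at days 1, 3 and 7, over all cells (circles) and within the microglia side (squares) and the macrophage side (diamonds). The homeostatic list runs from 0.83 at day 1 to -0.80 at day 7 over all cells and the recruited list from -1.65 to 1.38. The G2/M list of day 1 lies near 0.72 on the microglia side and 5.10 on the macrophage side. Of the 28 cycling cells of that macrophage side, 17 were the C1q-low cells. Those held 23 Cdc20 UMIs, and the other 11 held 1.

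Within the microglia side the homeostatic list had medians of 0.21, -0.71 and -0.53 at days 1, 3 and 7, where the median of all genes was 0.05, 0.05 and 0.16. P2ry12, a purinergic receptor of resting microglia, stood there at 92.8 against 67.7 CPM at day 1 (1.37-fold higher, interval 1.09 to 1.71), 370.1 against 774 at day 3 (2.09-fold lower, 2.00 to 2.19) and 148 against 374 at day 7 (2.52-fold lower, 1.97 to 3.27). Csf1r stood at 796 against 784, 763 against 1225 (1.61-fold lower) and 650.5 against 1123 (1.73-fold lower). Cx3cr1, the fractalkine receptor, stood at 726 against 669, 752 against 834 and 655 against 762. P2ry12 and Csf1r were thus lower in cycling phagocytes of the microglia side at days 3 and 7 and not at day 1. The sides were not compared at equal depth. Over all phagocytes at equal depth, the P2ry12 log2 ratios at days 1, 3 and 7 were 0.20, 1.71 and -0.70. Those of Csf1r were 0.036, 1.46 and -0.27, so both genes were higher at day 3 there. P2ry12 is one of the genes that put a cell on this side, which limits how low it can be.

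Within the macrophage side the homeostatic list had medians of 1.01, 0.84 and -0.12. Tmem119 was 2.85-fold higher at day 1 (interval 1.98 to 3.99), 2.61-fold at day 3 (2.28 to 2.98) and 1.04-fold at day 7 (0.666 to 1.57), and Cx3cr1 was 3.85- and 2.91-fold higher at days 1 and 3 and 1.10-fold lower at day 7. Ly6c2 stood at 1595 against 137 CPM at day 1, 17.4 against 88.3 at day 3 and 1282 against 105 at day 7. At day 1, 620 of its 623 UMIs in cycling phagocytes came from the 17 C1q-low cells. Ccr2, the chemokine receptor of monocytes, was 1.40- and 1.07-fold lower at days 1 and 3 and 4.17-fold higher at day 7 (3.27 to 5.27). Over all cycling phagocytes of day 7, the 27 C1q-low cells held 385 Ly6c2 and 65 Ccr2 UMIs, and the others 69 and 27. Tmem119, Ly6c2 and Ccr2 are among the genes that set the sides, which limits the values they can take within a side. No draw at equal depth was made within this side.

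Genes of disease-associated and lipid-laden phagocytes had medians of -0.93, -0.29 and -0.25 over all cycling phagocytes, with 13 of 19, 7 of 24 and 5 of 21 lower. Spp1, which encodes osteopontin, differed by side: on the microglia side it stood at 4497 against 13919 CPM at day 1 (3.1-fold lower), 15922 against 7666 at day 3 (2.08-fold higher) and 14947 against 7667 at day 7 (1.95-fold higher), and on the macrophage side it was 5.05-, 1.19- and 1.99-fold lower. Gpnmb, a lysosomal glycoprotein, stood at 556 against 1983 CPM at day 3 and 829.8 against 1276 at day 7 over all cells; within the microglia side it was 1.07-fold higher at day 3 and 1.75-fold higher at day 7, and within the macrophage side 2.29- and 3.29-fold lower. Lgals3, galectin-3, was 2.99-fold lower on the microglia side at day 1 and 1.55-fold higher at day 3. The microglia side thus had higher Spp1 in cycling than in noncycling phagocytes at days 3 and 7 only, among the injured libraries. The sides were not compared at equal depth. Over all phagocytes at equal depth, the Spp1 log2 ratios at days 1, 3 and 7 were -1.94, -1.26 and -0.75. The list medians were -0.63, -0.42 and -0.63.

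Interferon response genes had medians of -1.10, -0.73 and -0.76, with 13 of 16, 10 of 17 and 7 of 10 lower and 1, 1 and 0 higher. Cxcl10, an interferon-induced chemokine, went the other way, at 559.7 against 225 CPM at day 1, 235 against 90.8 at day 3 and 158 against 145 at day 7. Within the microglia side the list medians were -0.01, -0.21 and -0.63, so the day 1 value of the list was not seen there. At equal depth they were -0.05, -0.42 and -0.20, and without cells holding 3 or more UMIs of another class the day 7 median was 0.37. Antigen presentation genes had medians of -0.80, -0.22 and 0.16, and -0.12, 0.45 and 0.53 at equal depth. Of them 8 of 15 were lower at day 1, 6 of 16 lower at day 3, and 5 of 14 higher at day 7. Of all tested genes, 10.6% were lower at day 1, 6.45% lower at day 3 and 23.4% higher at day 7. Cd74, the invariant chain, stood at 288 against 1888, 603 against 1097 and 2262 against 832 CPM, and its day 7 value on the microglia side was 73.0 against 257. At day 7 it stood at 8436 CPM in the C1q-low cycling cells and at 733 in the other cycling phagocytes. Cd74 had log2 ratios of -1.17, 0.58 and 2.83 at equal depth, and H2-Ab1, a class II chain, -1.61, 0.45 and 3.33, so neither was lower at day 3.

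Chemokine and cytokine genes had medians of -0.67, -0.24 and -0.12, with 13 of 24, 9 of 26 and 9 of 22 lower and 6, 5 and 5 higher. These medians became -0.015, 0.58 and 0.097 at equal depth, so those of days 3 and 7 turned. Ccl6 stood at 708 against 5384 CPM at day 1 and 345 against 803 at day 3, and Pf4, platelet factor 4, at 31.2 against 981 at day 1, 331 against 904 at day 3 and 292 against 169.7 at day 7. Lysosome genes had medians of -0.44, -0.39 and -0.18, and -0.23, -0.48 and -0.41 at equal depth. Psap, the saposin precursor, was 1.74-, 2.11- and 1.22-fold lower and Ctss, a lysosomal protease, 1.05-, 1.73- and 1.81-fold lower. The Psap log2 ratios at equal depth were 0.046, -1.44 and -0.62, so its day 1 value turned. Immediate early genes had medians of -0.15, -0.49 and -0.81, with 3 of 18, 3 of 18 and 13 of 17 lower and 0 higher in each; at equal depth these medians were 0.03, 0.40 and -0.30. Growth factor receptors and ligands had -0.08, -0.11 and -0.56, with 14 of 28 lower at day 7. Crybb1, a crystallin of young microglia and one of the side genes, was 6.74-fold lower at day 7 on 11 UMIs in cycling cells (interval 3.76 to 13.5).

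Between the days, cycling phagocytes were compared with each other at 2-fold, with noncycling phagocytes of the same pair of libraries beside them; both pairs use the day 3 library. From day 1 to day 3, 5.54% of 5849 genes were at least 2-fold higher and 11.3% at least 2-fold lower in cycling phagocytes. From day 3 to day 7 these were 2.13% and 1.63% of 3987 genes. TMM scaling raised the day 3 over day 1 log2 ratios by 0.29, which gave 598 genes higher and 355 lower instead of 324 and 661, and it moved those of day 7 over day 3 by 0.04. Of the G2/M list 18 of 33 were higher at day 3 than at day 1 and 0 lower, and of the S phase list 15 of 29 were lower and 1 higher. Ccnb1 was 3.29-fold higher (interval 2.45 to 4.52) and Mcm5 2.39-fold lower (2.03 to 2.80) at day 3, where noncycling phagocytes had a Mcm5 level 3.99-fold lower.

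Disease-associated and lipid-laden genes were higher at day 3 than at day 1 in 15 of 23 tested, with a median of 1.52 in cycling and 0.56 in noncycling phagocytes. Gpnmb stood at 4.45 CPM at day 1 and 556 at day 3 in cycling phagocytes, on 6 UMIs at day 1, and at 48.1 and 1983 in noncycling ones. Apoe was 37.3-fold higher in cycling and 15.6-fold in noncycling phagocytes, and Spp1 4.94- and 1.52-fold higher. Endothelial cells thinned to 2000 UMIs held an Apoe transcript in 35.6% at day 1 and 93.7% at day 3. For Spp1 these shares were 57.4% and 77.9%, and for Gpnmb 0.113% and 9.07%. The part of free RNA in the differences of these genes between the days was not tested. Pf4 was 10.6-fold higher in cycling phagocytes (7.83 to 14.7) and 1.09-fold lower in noncycling ones, and Arg1, the arginase of wound macrophages, 2.78-fold higher and 2.57-fold lower. On the microglia side alone, the log2 ratio of day 3 over day 1 in cycling phagocytes was 1.97 for Pf4 and -0.18 for Arg1, so Arg1 turned there. Lysosome genes had a median of 1.03 in both classes, with 12 of 23 higher in cycling phagocytes, and ribosome biogenesis genes -1.42 and -1.35, with 16 of 21 lower.

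From day 3 to day 7 the G2/M list had 0 of 29 genes and the S phase list 0 of 20 genes past 2-fold in cycling phagocytes, with medians of -0.01 and 0.10. Recruited monocyte and macrophage genes had a median of 0.58 in cycling phagocytes (7 of 22 higher, 2 lower) and -1.31 in noncycling ones, and homeostatic microglia genes -0.29 and 0.80. Ly6c2 stood at 7.79 CPM at day 3 and 555 at day 7 in cycling phagocytes, while it was 1.99-fold lower in noncycling ones. At day 7 it stood at 2371 CPM in the 27 C1q-low cycling cells and at 105 in the other cycling phagocytes. These C1q-low cells held 385 Ly6c2 and 1370 Cd74 UMIs, and the other cycling phagocytes 69 and 481. Cd74 was 3.75-fold higher in cycling and 1.32-fold lower in noncycling phagocytes, while on the microglia side its log2 ratio in cycling phagocytes was -0.83. Arg1 was lower in both, at 638 and 6.11 CPM in cycling and 1079 and 20.2 in noncycling phagocytes at days 3 and 7. Prss34, a mast cell and basophil protease, was at least 2266-fold higher at day 7 against a floor of 3 counts over the day 3 cells, and all its UMIs came from the 2 cells with mast cell genes.

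Transcripts of other cell classes were present in both classes of phagocytes. At least 3 UMIs of the neutrophil markers were found in 93.3% of cycling and 62.6% of noncycling phagocytes at day 1, 26.6% and 20.8% at day 3, and 56.4% and 38.6% at day 7. In rates, the median cell held 6.07 neutrophil marker UMIs per 10000 in cycling and 5.77 in noncycling phagocytes at day 1, 0.907 and 1.43 at day 3, and 4.81 and 4.92 at day 7. The rule allows up to 50 per 10000 of the neutrophil genes S100a8 and S100a9. Endothelial markers reached 3 UMIs in 19.1%, 8.00% and 5.98% of cycling phagocytes and in 5.44%, 4.08% and 4.66% of noncycling ones. Their summed level ran the other way, at 100.2 against 194 CPM at day 1, 113 against 137 at day 3 and 86.8 against 277 at day 7. Oligodendrocyte precursor markers did so in 3.37%, 4.14% and 0% of cycling and 0.266%, 0.299% and 0.468% of noncycling phagocytes, with summed levels of 11.9 against 12.5, 32.7 against 13.4 and 29.3 against 23.1 CPM. Among defining markers of other classes, Cd3e (T cells), Mog (oligodendrocytes) and Alas2 (erythroid cells) had 0 UMIs in the cycling phagocytes of days 1, 3 and 7, and Ly6g (neutrophils) had 0 at day 3. Other genes of these lists were detected in them: 4 of 5 oligodendrocyte markers and 2 of 4 erythroid markers on each day, 1, 3 and 3 of 5 T or NK cell markers, and 6 of 7 neutrophil markers at day 3. The part of these transcripts in the results was not tested.

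The tables held 9663877 UMIs in the intact library, 50640634 at day 1, 72515788 at day 3 and 30470794 at day 7. Libraries shared between 20 and 91 cell barcodes in pairs, 0 of which were cycling in both, and at most 8 were cycling in either. C1qa, a gene of the rule, was found in the cycling phagocytes of each injured library, and Csf1r stood at 674, 556 and 463 CPM at days 1, 3 and 7.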

How the data were processed

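The authors deposited 1 table of UMI counts per library, gene name by cell, made with Cell Ranger 3.0.2 per the submitters' processing notes. The genome build, the annotation and the calling of cells are not given in the sources used here. The extraction notes name a version 3 reagent kit beside a version 2 gel bead kit. Of 6 samples in the series, 4 libraries were used and 2 were not analysed here. Analyses used the 28615 gene names shared by the 4 tables (77 further names stood only in the intact and day 1 tables) and 26847 cells, with no further filter on cells. The counts of cycling and of noncycling phagocytes were summed per library and divided by their total. Ratios of counts have exact binomial intervals and shares exact Clopper-Pearson intervals, at 95%, for counting error. There was no test, since each condition is 1 library.

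Gene lists and members were chosen with earlier results of these data known. Genes were named by a rule: up to 4 per list with the largest ratio at day 3, the 10 highest and 10 lowest in all 3 injured libraries, the 5 highest and 5 lowest in each and the 8 highest and 8 lowest between days, ranked with 10 CPM added and with at least 50 CPM where higher. The marker genes of the sides and other genes outside that rule, such as Spp1 and Csf1r, were added after their values were seen. Some genes that the rule or the marker lists name are not reported here. The microglia and macrophage sides were set by 9 and 11 genes. Scaling alternatives came from edgeR 4.0.16 (TMM) and DESeq2 1.42.0 (size factors) in R 4.3.3; other steps used Python 3.11.15 with numpy 2.4.6, scipy 1.17.1 and scanpy 1.11.5. The ratio step was tested on simulated counts. Scrublet marked 0.0363% to 0.503% of cells of a library as doublets, too few to count as a working call, so doublets remain in the data; the 5% of cells with the highest scores held 8 of 89, 85 of 700 and 4 of 117 cycling phagocytes at days 1, 3 and 7.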

Additional observations from a re-analysis of the deposited data

Results flagged for a closer look

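Homeostatic microglia genes and genes of recruited monocytes and macrophages had medians past 1.5-fold in opposite directions in different libraries when all phagocytes were used, and these differences were not tested. The homeostatic list had a median log2 ratio of cycling over noncycling phagocytes of 0.83 at day 1 and -0.80 at day 7. The recruited list had -1.65 at day 1, -0.93 at day 3 and 1.38 at day 7. At equal depth the homeostatic medians were 0.20 and -0.27 at days 1 and 7, neither past 1.5-fold, and 1.67 at day 3, which was past it. The recruited medians were 0.34, -0.72 and 1.06, so the recruited list turned at day 1 and kept opposite signs at days 3 and 7. Noncycling phagocytes on the microglia side made up 27.4% at day 1 and 74.8% at day 7.

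The share of cycling cells on the microglia side was 4.12 times that on the macrophage side at day 1, 2.74 times at day 3 and 0.305 times at day 7, so the order turned between day 3 and day 7. This difference was not tested, as each day is 1 library. Thinned to 2000 UMIs, the day 1 shares were 1.28% on the microglia side and 0.502% on the macrophage side, with intervals that overlapped. Without the C1q-low cells the sides gave 1.5% and 3.07% at day 7.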

How the results depend on the processing

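Across 36 values of the cycling share under other settings, 19 moved by less than their counting interval, and the day 3 library stayed the highest in each. With at least 2 UMIs of the 5 genes the shares were 3.80%, 14.3% and 2.78% at days 1, 3 and 7, and with at least 5 UMIs 1.31%, 8.23% and 1.73%. Thinned to 2000 UMIs they were 0.847%, 6.44% and 1.58%, and with C1q of at least 10 per 10000, a setting chosen after seeing the data, 3.21%, 12.1% and 1.80%. Without cells holding 3 or more UMIs of another class they were 1.26% in the intact cord and 0.497%, 11.6% and 1.44% at days 1, 3 and 7. Without the 5% of cells with the highest Scrublet scores, also chosen after seeing the data, day 3 gave 9.70%. By side, thinned shares were 0% on the intact macrophage side, 1.28% and 0.502% (microglia and macrophage side) at day 1, 9.99% and 3.27% at day 3 and 0.882% and 3.70% at day 7; with C1q of at least 10 the macrophage side gave 0%, 1.61%, 7.42% and 3.07% in the intact cord and at days 1, 3 and 7. The S-high shares moved by less than their intervals when both lists were thinned, with the cells still chosen at full depth.

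Counts of genes called depend on scaling and filter by construction. Cycling against noncycling at day 1 gave 591 higher and 1099 lower under TMM, 595 and 1097 under median-of-ratios scaling, 2185 and 1177 with a filter of 5 UMIs, 503 and 353 with 50 UMIs, 392 and 204 on the microglia side, 599 and 310 with C1q of at least 10, 638 and 249 at equal depth, and 639 higher on the macrophage side. At day 3 the count lower was 1059 under TMM, 1039 under median of ratios, 1037 with a filter of 5 UMIs and 385 on the macrophage side. At day 7 the counts were 536 and 626 under TMM, 560 and 592 under median of ratios, 1947 and 924 with 5 UMIs, 443 and 136 with 50 UMIs, 467 and 169 on the microglia side, 358 and 121 without cells of another class, and 193 lower on the macrophage side. Day 3 over day 1 gave 598 higher and 355 lower under TMM, 603 and 349 under median of ratios, 636 and 1290 with 5 UMIs, 195 and 325 with 50 UMIs, and 168 and 266 on the macrophage side. Day 7 over day 3 gave 279 and 357 with 5 UMIs, 49 and 20 with 50 UMIs, and 50 and 39 on the microglia side. Fewer or more genes enter under the other filters and sides.

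A log2 ratio is listed here as reversed only if its main value was at least 1.5-fold, or 2-fold between days. Some smaller medians also turned at equal depth, such as chemokines at days 3 and 7, immediate early genes at days 1 and 3 and antigen presentation at day 3. Log2 ratios that reversed at equal depth at day 1 were the recruited list (0.34), Ccr2 (1.10), Cx3cr1 (-0.060), Fos (0.042), Klf4 (0.21), Lst1 (0.34) and Psap (0.046). At day 3 they were Btg2 (0.42), Ccr2 (0.57), Cd74 (0.58) and H2-Ab1 (0.45). On the microglia side they were, at day 1, chemokines (0.066), glycolysis (0.025) and Lst1 (0.12); at day 3, the recruited list (0.38), Cx3cr1 (-0.15), Gpnmb (0.10), Lgals3 (0.63), Pf4 (0.83) and Thbs1 (0.23); at day 7, Cd74 (-1.82), Gpnmb (0.80) and H2-Ab1 (-0.41); and between days, Arg1 (-0.18) and Cd74 (-0.60) from day 1 to 3 and Cd74 (-0.83) from day 3 to 7. Without cells of another class, H2-Ab1 at day 3 (0.036) and the interferon list (0.37), Cd74 (-1.04) and Gpnmb (0.36) at day 7 reversed. The causes were not tested. That setting was not run for cycling against noncycling at day 1, where 4 cycling cells were left. No paired analysis was possible because each condition is 1 library and no test was run. Counting error limits the intact cord (4 cycling cells) most, then days 1 and 7.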

Other observations

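Ccl5, a chemokine, stood at 20.5 CPM in cycling and 252 CPM in noncycling phagocytes of the microglia side at day 7, a 12.3-fold lower value on 9 UMIs in cycling cells (interval 6.46 to 26.9). At days 1 and 3 its values there were 2.27- and 1.16-fold lower. Among phagocytes with 1 or 2 UMIs of the 5 genes at day 1, thinned to 2000 UMIs, 60.5% held 2 or more UMIs of the S phase list, between the 25.6% of noncycling and the 98.9% of cycling phagocytes.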
